A study of Mus musculus with 9 samples.

Results

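The regions described here are stretches of the mouse autosomes where CTCF was called in CD8+ T cells cultured for 72 h with IL-7 and IL-15 and in no library of uncultured naive cells. Peaks of the 8 CTCF lists on chromosomes 1 to 19 were merged where they overlapped by at least 1 bp, which gave 38586 regions. A region was taken where at least 1 of the 4 lists at 72 h held a peak and none of the 4 naive lists did. Of all regions, 66.7% had a peak in a list at 72 h, and 1111 regions (2.88% of all) also had none at 0 h. They are called 72 h-only regions below. They were chosen by the authors' own peak calls, listed at 72 h and not at 0 h, so the contrast of 72 h with 0 h is given as a description and carries no test.

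CTCF occupancy was measured by CUT&RUN, which uses an antibody-directed nuclease to release the DNA under a bound protein. Naive CD8+ T cells (GFP+ TCRbeta+ CD62Lhi CD44lo-med CD8+) had been sorted from the spleens of mice carrying hCD2-Cre and Rosa26-lsl-GFP, with either wild-type Tcf1 and Lef1 (WT) or both genes floxed (Tcf1-/-Lef1-/-, DKO). In both genotypes GFP marks cells in which Cre has acted, and hCD2 regulatory sequences drive Cre in lymphocytes. Peak lists cannot show the deletion itself, so it was not checked here. Each genotype had 2 libraries at 0 h and 2 at 72 h, and 1 IgG library came from WT cells at 0 h. The ages, the sexes and the number of animals were not given in the labels used here. Replicates are not stated to be separate animals, so a p-value over libraries measures only the spread between these samples, which may be technical. Time, culture and the cytokines change together between 0 h and 72 h and cannot be told apart. Peak lists hold no expression values, so the sorted identity could not be checked against marker genes.

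CTCF is a zinc-finger protein that binds a long, well-conserved DNA motif. Together with the cohesin ring it halts loop extrusion and so sets the anchors of chromatin loops and the borders of insulated domains. Most CTCF sites are shared between cell types, while a smaller and generally weaker set varies with cell type and state. IL-7 and IL-15 signal through the common gamma chain and STAT5 and sustain naive and memory CD8+ T cells. Tcf1 and Lef1 are related HMG-box factors of the T cell lineage. Positions are given in mm9, and no gene or sequence is named because neither an annotation nor a genome of that build was used here.

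The lists differed in length, and a longer list has more room for weak sites. Naive libraries held 29570 to 31798 autosomal peaks. At 72 h WT cells had 16909 peaks in replicate 1 and 25940 in replicate 2, and DKO cells had 10078 and 15829. The sources used here give no read totals. No CTCF list contained a peak of fold under 4, where fold is the authors' enrichment of a peak over the background estimated in peak calling. A naive peak below fold 4 would therefore not be listed, and absence means only that no peak was listed. The IgG list held 5 peaks, 2 of them on autosomes, and 0 of the 1111 regions overlapped an IgG peak. With so few peaks, and from WT cells at 0 h, that list could not test for unspecific signal in the libraries at 72 h.

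Most 72 h-only regions rested on the longest list at 72 h. Of the 1111 regions, 928 were called in WT replicate 2 and in no other library. All but 21 regions had a peak in that list. In all, 947 regions (85.2%) were in exactly 1 list at 72 h, against 30.2% of all regions with a peak at 72 h. WT replicate 1 held 143 of the regions, DKO replicate 1 held 23 and DKO replicate 2 held 75. Without WT replicate 2 at 72 h, 187 regions met the rule, so this library decides most of the count.

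**Figure D1:**
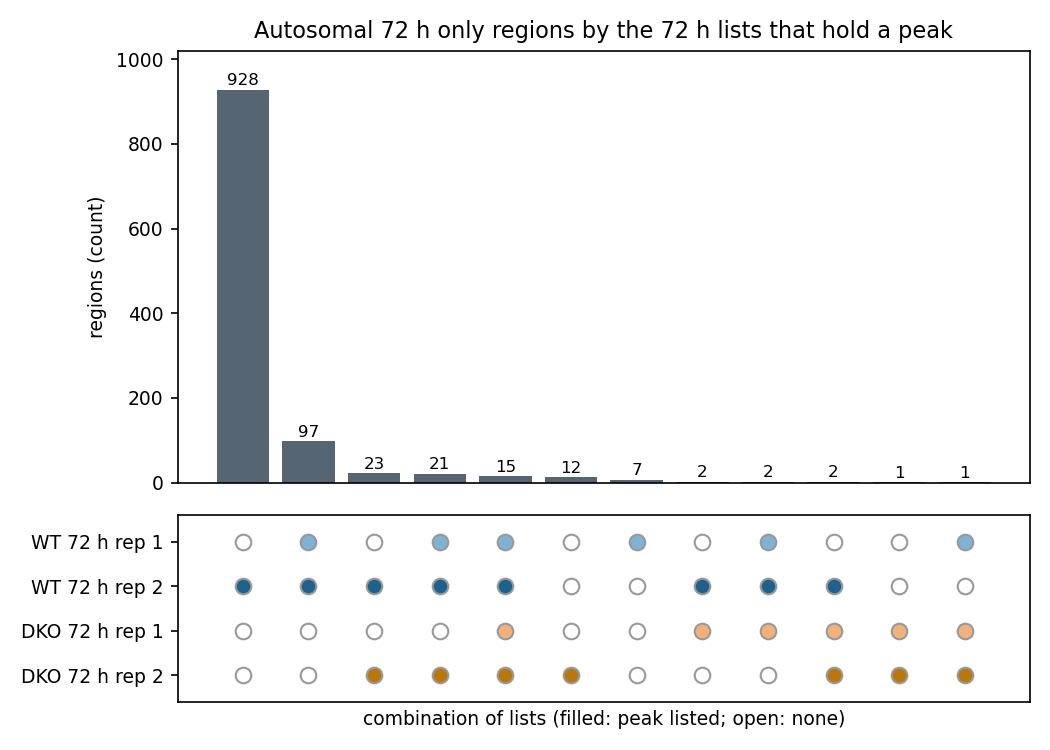
Number of autosomal 72 h-only regions (vertical axis, count) for each combination of the 4 lists at 72 h, with filled circles below each bar marking the lists that held a peak. The first bar, 928 regions in WT replicate 2 alone, is far above the next, 97 regions in both WT lists and no DKO list, and 15 regions were in all 4 lists.

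Calls made in 1 library alone were as frequent in naive lists. WT replicate 2 at 72 h held 928 such regions, 3.66% of its 25383 regions. The naive lists held 1316 (4.19%) and 791 (2.65%) in WT and 1068 (3.66%) and 1552 (5.12%) in DKO. Of the other lists at 72 h, WT replicate 1 held 7, DKO replicate 1 held 0 and DKO replicate 2 held 12. The share of regions called alone in WT replicate 2 thus lay within the range of the 4 naive lists, and the shorter lists at 72 h had almost none.

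Calls repeated between libraries were the smaller group. In at least 2 lists at 72 h, 164 of the 1111 regions had a peak (14.8%), against 69.8% of all 25750 regions with a peak at 72 h. A peak in exactly 3 lists was found at 26 regions (2.34%). Among regions with a peak in 1, 2, 3 or 4 naive lists, 15, 52, 88 and 4423 were in exactly 3 lists at 72 h. All 4 lists held a peak at 15 regions (1.35%), against 36.6% of all regions with a peak at 72 h. By the mirrored rule, a naive peak and none at 72 h, 12836 regions were found, of which 8109 were in at least 2 naive lists and 2894 in all 4. Since the rule required absence from 4 lists, these shares describe the selection and are not read further.

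That imbalance between the directions was not the same in lists cut to equal length. With every list cut to its 10078 strongest autosomal peaks by the authors' p-value, 2457 regions were 72 h-only and 1672 were naive-only. In all 4 lists of a time and none of the other, the numbers were then 178 at 72 h and 252 at 0 h. The cut took more peaks from each naive list than from any list at 72 h. Dropping naive peaks adds 72 h-only regions by construction, so the part of list length in the imbalance was not tested. Of the 164 regions in at least 2 of the deposited lists, 60 were still 72 h-only in the shortened lists, among them all 15 that were in all 4. Shortening a naive list cannot add a naive peak, so a region could be lost here only by falling from the lists at 72 h. DKO replicate 1 at 72 h is itself the list of 10078 peaks and was not cut. All 15 had a peak in it, so this cut could not lose them, and their survival carries no information.

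The 15 regions in all 4 lists were the most repeated of the set. They are numbered here by their mean rank percentile over the lists at 72 h, where 100 is the strongest peak of a list by the authors' p-value. Folds are given in the order WT replicates 1 and 2, then DKO replicates 1 and 2, and each fold belongs to its own list.

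Site 1, chr11:95609478-95610147, had folds of 9.64, 17.4, 8.58 and 14.5. It lay 1829 bp from a CTCF region called in all 8 libraries, the closest to a naive region among the 15. Site 2, chr11:61961845-61962568, had folds of 12.1, 17.2, 9.14 and 10.6 and ranked in the upper part of every list, with percentiles from 67.1 to 78.2. Site 3, chr15:61239614-61240510, had folds of 13.1, 14.2, 5.12 and 11.4. At this site DKO replicate 1 stood below the other 3 lists, with a rank percentile of 30.3 against 76.7 to 85.4.

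Site 4, chr1:140186518-140187161, had folds of 9.89, 19.1, 6.03 and 9.02, the highest fold of any 72 h-only region. Site 5, chr5:3460674-3461438, had folds of 9.14, 16.5, 6.88 and 8.78. Site 6, chr16:55636802-55637400, had folds of 9.22, 14.4, 6.78 and 7.99 and was the most isolated of the 15, with the nearest naive region 116633 bp away. In these 3 sites both WT folds were above both DKO folds, with WT replicate 2 highest and DKO replicate 1 lowest.

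Site 7, chr2:128076249-128076845, had folds of 10.8, 13.6, 5.29 and 7.57, so the genotypes did not overlap. Site 8, chr2:103482455-103483025, had folds of 5.74, 7.32, 7.69 and 8.75. It was the only one of the 15 where both DKO folds were above both WT folds, and its rank percentiles were 17.2 and 32.1 in WT and 60.1 and 55.0 in DKO. Site 9, chr7:121314916-121315485, had folds of 7.27, 16.8, 4.64 and 5.002. Site 9 ranked high in WT replicate 2 alone, at percentile 81.4, and at 40.2 or lower in the other lists.

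Site 10, chr4:137645336-137645902, had folds of 7.87, 9.68, 4.20 and 7.57, with DKO replicate 1 near the lowest listed fold. The other 5, named after their values were seen, were weaker by rank. They were chr15:62655215-62656942 (site 11), chr7:105737513-105738032 (site 12), chr11:57258849-57259222 (site 13), chr4:95148785-95149447 (site 14) and chr6:15743404-15744004 (site 15). Site 11 was the widest 72 h-only region, at 1728 bp, and its summits at 72 h spread over 1063 bp. Site 15 had folds of 5.64, 6.75, 4.42 and 4.36, and its mean rank percentile was 10.1.

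**Figure D2:**
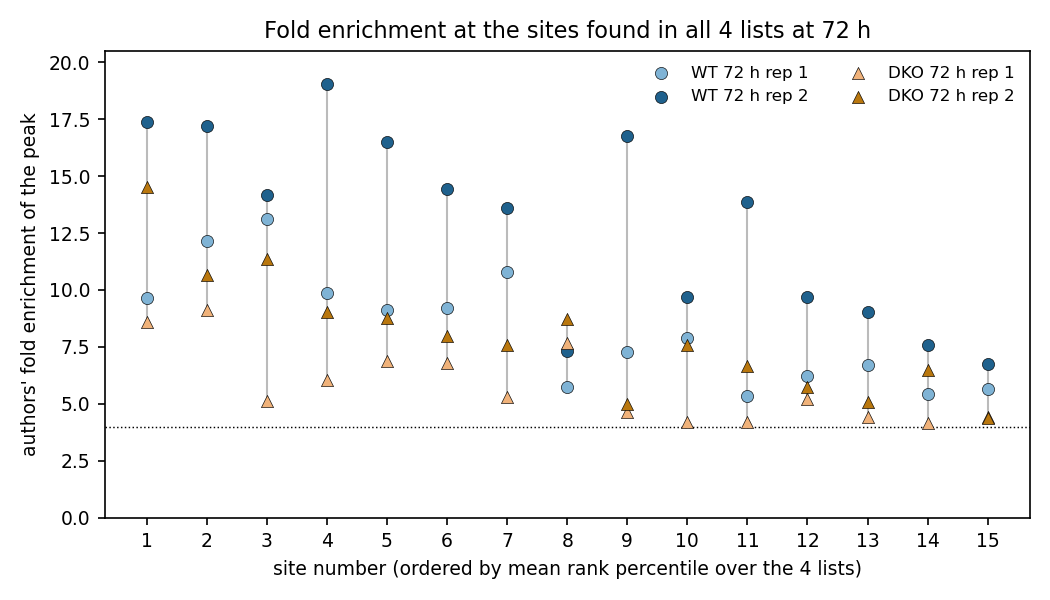
The authors' fold enrichment (vertical axis) at the 15 sites found in all 4 lists at 72 h (horizontal axis, ordered by mean rank percentile), with 1 point per library, circles for WT, triangles for DKO, and a dotted line at fold 4, the lowest value the lists hold. WT replicate 2 is the highest point at 14 sites, and at site 8 both DKO points are above both WT points.

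Over the 15 sites, both WT folds were above both DKO folds at 11, the reverse held at 1, and the genotypes overlapped at 3. Among the 9420 other regions in all 4 lists at 72 h, both WT folds were above both DKO folds at 50.6%, and the reverse held at 0.180%. Median fold over the 15 was 7.87 and 13.9 in the WT lists and 5.23 and 7.57 in the DKO lists. The medians of the whole lists were 7.89, 9.06, 7.03 and 8.05, also highest in WT replicate 2 and lowest in DKO replicate 1. The part of the list medians in the order of the genotypes was not tested.

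By rank, 72 h-only peaks sat in the weak part of every list. Their median rank percentile was 17.2 and 11.1 in the WT lists and 13.9 and 16.6 in the DKO lists. Their median folds were 5.78, 5.43, 5.23 and 5.77, against 7.89, 9.31, 7.03 and 8.06 for the other peaks of the same lists. Above rank percentile 75 of a list there were 3 of 144 such peaks in WT replicate 1, 15 of 1090 in WT replicate 2, 0 of 23 in DKO replicate 1 and 2 of 75 in its second replicate. A fold of at least 10 in any list was reached at 65 of the 1111 regions (5.85%), and the matching share of all regions was not counted. Averaged over the lists that held each region, the median fold was 5.43. For regions with peaks at both times it was 10.4, naive lists included.

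**Figure D3:**
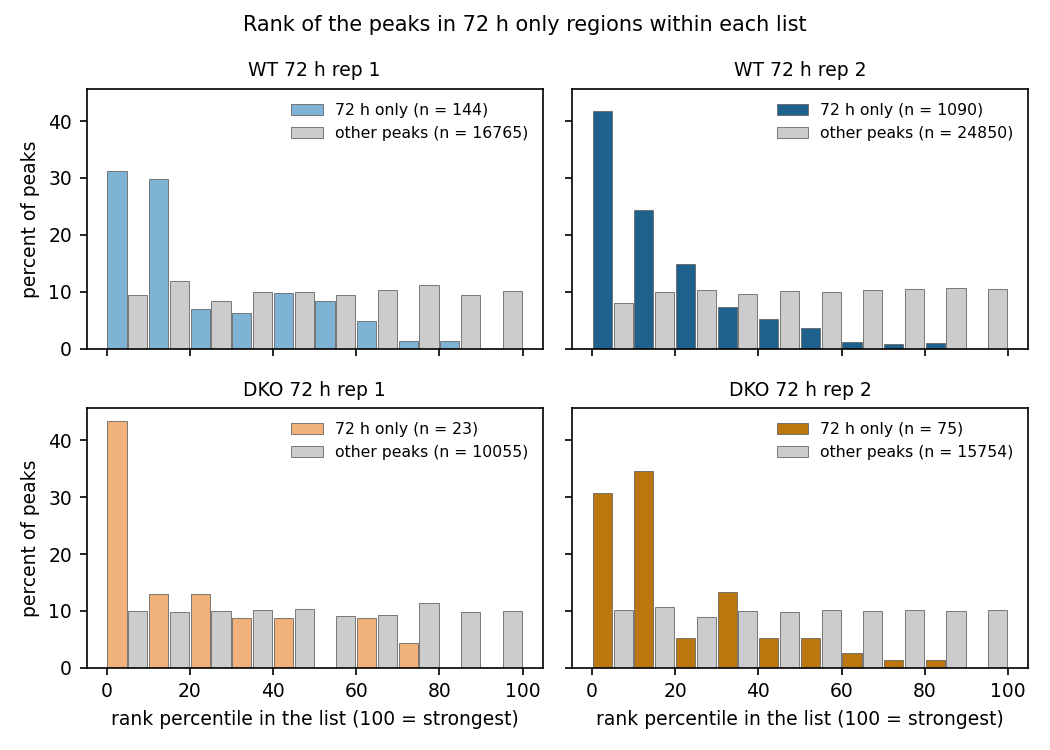
Share of peaks (vertical axis, percent) in each step of 10 of the rank percentile (horizontal axis, 100 is strongest) for peaks in 72 h-only regions (coloured) and the other peaks (grey) of each list at 72 h. In WT replicate 2, 41.8% of the 1090 peaks in 72 h-only regions were below rank percentile 10, against 8.03% of the other peaks.

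Both WT lists and no DKO list held a peak at 97 of the 1111 regions (8.73%), against 9.55% of all regions with a peak at 72 h. The 1111 include 928 in WT replicate 2 alone, so the share depends on the regions it is taken over. Among regions in at least 2 lists at 72 h, the 97 were of 164. For all regions with a peak at 72 h the count was 2459 of 17968, a smaller share. The parts of list length and of the rule in this were not tested. The highest-ranked of the 97 was chr2:29549526-29550445, with folds of 14.1 and 17.6 in WT replicates 1 and 2. Next came chr7:75416735-75417049 (12.4 and 18.3), whose summits lay 12 bp apart. The third, chr8:89377556-89378081 (10.03 and 18.5), belongs to a dense group described below. They were followed by chr17:34299640-34300285 (9.05 and 15.0) and chr9:64412157-64412550 (10.1 and 18.3).

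Regions of DKO cells alone were few, both here and among all regions with a peak at 72 h. Both DKO lists and no WT list held a peak at 1 region (0.0900%), chr17:87581157-87581492, with folds of 4.61 and 7.62. Among all 25750 regions with a peak at 72 h there were 12 such regions (0.0466%), so both shares rest on few regions. A further 12 regions (1.08%) were in DKO replicate 2 alone, of which chr8:84026883-84027422 ranked highest, at fold 8.75. The matching share of all regions with a peak at 72 h was not counted. Of the 79 regions with a peak in a DKO list, 66 also had one in a WT list, and of the 19 in both DKO lists 18 did. In WT replicate 2, 81.3% of the 72 h-only regions of DKO replicate 2 were found, against 98.8% of its other regions, and 91.3% of those of DKO replicate 1, against 99.8%. The regions in exactly 3 lists were led by chr7:81732308-81732725, with folds of 10.9 and 12.4 in WT and 11.1 in DKO replicate 2.

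The share of a list that lay in 72 h-only regions was larger in WT, but its spread was wide. It was 0.852% of the peaks of WT replicate 1 and 4.20% of those of WT replicate 2, and 0.228% and 0.474% in DKO replicates 1 and 2. The genotypes did not overlap. The mean was 2.53% ± 2.37 (SD, n = 2) in WT and 0.351% ± 0.174 (SD, n = 2) in DKO, a DKO minus WT difference of -2.18 percentage points (exact two-sided permutation test, p = 0.333). Since 2 libraries against 2 allow no smaller p, and the share comes from the same calls at 72 h that chose the regions, this p carries no information, and the values are a description. With only the lists at 72 h cut to their 10078 strongest peaks, an alternative chosen after seeing the data, 63 regions met the rule and the difference was -0.129 points. With all 8 lists cut to that length the difference was 1.59 points, so its direction turned. The shares were then 9.84% and 9.28% in WT and 13.0% and 9.31% in DKO, so the genotypes overlapped. The highest was DKO replicate 1, the list that was not cut. Without WT replicate 2 at 72 h the difference was -0.509 points.

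The pair of lists at 72 h of nearest length, WT replicate 1 and DKO replicate 2, shared few 72 h-only regions. Of the 181 such regions in either list, 37 were in both (20.4%), 106 in WT alone (58.6%) and 38 in DKO alone (21.0%). Of the 18029 other regions in either list, 76.0% were in both, 14.8% in WT alone and 9.22% in DKO alone. Shares within rank ranges are given side by side, with no test of their difference. Above rank percentile 50 of the WT replicate 1 list, 12 of 23 72 h-only regions were found in DKO replicate 2 (52.2%, exact 95% interval 30.6% to 73.2%), against 97.3% of the other regions. Above rank percentile 50 of the DKO replicate 2 list, 7 of 8 were found in WT replicate 1 (87.5%, 47.3% to 99.7%), against 98.7% of the others, a share that lies within the interval. These intervals cover counting error only.

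Within WT cells the pattern depended on the direction. Above rank percentile 50 of the WT replicate 2 list, 51 of 71 72 h-only regions were found in WT replicate 1 (71.8%, 59.9% to 81.9%), against 93.3% of the other regions. Below rank percentile 10, 11 of 456 were found (2.41%), against 10.7%. In the other direction, 135 of the 143 regions of WT replicate 1 were found in the longer WT replicate 2 list (94.4%), against 98.8% of the others. By rank, all 28 between percentiles 25 and 50 and all 23 above 50 were found in that direction, against 99.2% of the others and 8289 of 8292. The rule required absence from 4 lists, and its part in these shares was not tested.

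**Figure D4:**
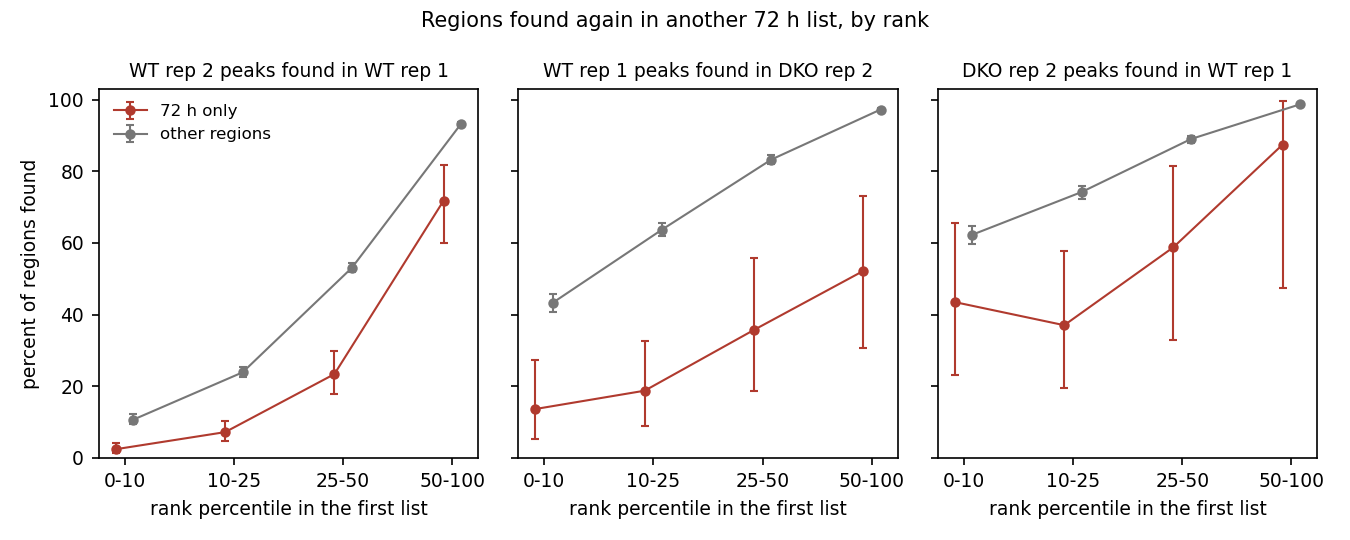
Percent of the regions of a first list at 72 h that a second list also held (vertical axis), by rank percentile in the first list (horizontal axis, 4 ranges), for 72 h-only regions (red) and other regions (grey), with exact 95% intervals. The 72 h-only points are below the others in every range shown, for example 52.2% against 97.3% for WT replicate 1 peaks above rank percentile 50 looked up in DKO replicate 2, while in the last panel the intervals of the lowest and highest ranges reach the grey points.

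Summits, which the rule did not use, were compared where 2 lists at 72 h both held a 72 h-only region. Between the WT replicates the median summit distance was 41 bp over 135 regions, against 44 bp over 16166 other regions, and 105 of the 135 were within 100 bp (77.8%, against 80.1%). Other regions below rank percentile 25 of the WT replicate 1 list had a median distance of 58 bp, with 70.2% within 100 bp. Between WT replicate 2 and DKO replicate 2 the median was 46 bp over 61 regions, with 80.3% within 100 bp, against 79.8% of the others. Between the DKO replicates it was 79 bp over 19 regions, with 10 within 100 bp (52.6%, against 78.4%). At the 15 sites in all 4 lists the summits spanned a median of 130 bp, against 95 bp at the other regions in all 4, and 4 of the 15 spanned at most 100 bp (26.7%, against 53.6%). Peaks in 72 h-only regions were narrower, with a median width of 311 to 336 bp by list against 447 to 612 bp for other peaks, which limits how far apart summits can lie. Its part in the distances was not tested.

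Fold also went together between lists, less closely than elsewhere. Spearman's rho of the fold between WT replicates was 0.69 over 135 72 h-only regions and 0.85 over 16166 others. Between WT replicate 2 and DKO replicate 2 it was 0.57 over 61 and 0.82 over 15188. These are correlations across sites of the same pair of libraries, and the 72 h-only sites span a smaller range of fold.

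The 72 h-only regions lay farther from naive CTCF regions than weak naive sites did. Their median gap to the nearest region with a naive peak was 13383 bp. For regions called in 1 naive list alone, the median gap to another naive region was 6524 and 7108 bp in WT and 4557 and 4164 bp in DKO, and for regions with peaks at both times it was 7125 bp. Within 10 kb of a naive region there were 43.7% of 72 h-only regions, against 57.9% to 68.9% of those called in 1 naive list alone. More than 100 kb from any were 105 of the 1111 (9.45%), against 2.45% to 3.88%. For the 164 in at least 2 lists the median gap was 14512 bp, and 7 lay within 1 kb. The naive lists also defined the regions, so these distances are a description.

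**Figure D5:**
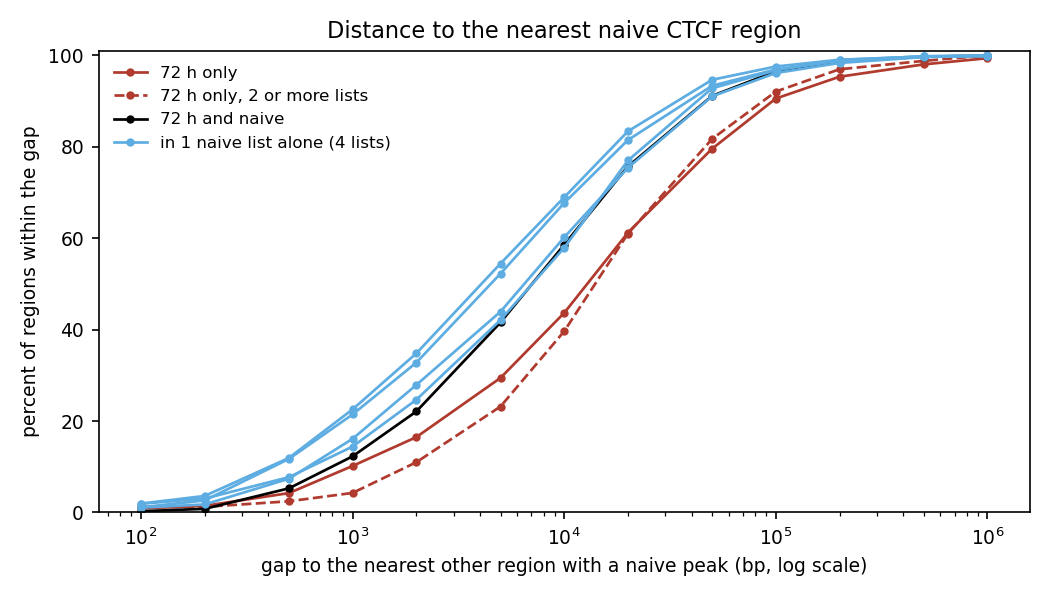
Cumulative percent of regions (vertical axis) by the gap in bp to the nearest other region with a naive peak (horizontal axis, log scale), for 72 h-only regions (red, dashed for those in at least 2 lists), regions with peaks at both times (black) and regions called in 1 naive list alone (blue, 1 line per list). At 10 kb the red lines are at 43.7% and 39.6%, below the black line at 58.6% and the blue lines at 57.9% to 68.9%; at the shortest and longest gaps the lines meet or cross.

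At the edge of the rule, some regions met it by a short gap, and others missed it by a peak in 1 naive list. The closest to a naive peak were chr18:35008970-35009222, with a gap of 2 bp, chr6:29719121-29719457 (8 bp) and chr6:31589702-31589984 (14 bp). All 3 were in WT replicate 2 alone, at folds of 4.70, 4.76 and 4.20. Outside it by 1 list were 752 regions with a peak at 72 h and in exactly 1 naive list. Their naive fold had a median of 5.02 and ran from 4.01 to 12.7, so not all of these naive peaks were weak. Of these, 8 had a peak in all 4 lists at 72 h, and their naive folds ran from 4.02 to 6.05. The highest-ranked of the 8 was chr9:13698896-13699329, with folds of 10.6, 19.4, 6.59 and 17.1 at 72 h and 6.05 in WT replicate 1 at 0 h.

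All 19 autosomes held 72 h-only regions, from 3.16% of the regions with a peak at 72 h on chromosome 17 to 5.59% on chromosome 1. For those in at least 2 lists, chromosome 16 had 11 of 794 (1.39%) and chromosome 18 had 1 of 683 (0.146%).

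Some 72 h-only regions lay in groups. Another lay within 50 kb of 215 of the 1111 (19.4%). Among those in WT replicate 2 alone the share was 13.4% of 928, and among regions called in 1 naive list alone it was 12.9% of 791, 19.01% of 1068, 16.9% of 1316 and 22.0% of 1552, counting neighbours of the same list. The share in WT replicate 2 alone thus lay within the range of the naive lists.

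The densest 500 kb windows held 6 or 7 regions each, with ties taken by chromosome and start. The same count was not made for naive regions. On chromosome 8, 7 of the 9 regions within chr8:89331928-89412348 were 72 h-only. Of these, 4 were in both WT lists, with folds of 8.85 and 12.2, 10.03 and 18.5, 6.39 and 10.2, and 4.58 and 5.33 from left to right, and none was in a DKO list. On chromosome 5, chr5:93293012-93417498 held 6 regions, all of them 72 h-only and 5 of them in WT replicate 2 alone. A further window, chr5:105482338-105783308, held 7 among 17 regions. It also held 2 of the 8 regions that missed the rule by a weak peak in 1 naive list, chr5:105491130-105491743 (naive fold 5.36) and chr5:105574241-105575409 (4.02).

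Among the 164 regions in at least 2 lists, 39 (23.8%) formed 17 groups in which neighbours lay within 200 kb, a grouping made after the values were seen. A neighbour of the same set lay within 200 kb of 28.3% of the 928 regions in WT replicate 2 alone. For regions called in 1 naive list alone it was 30.8% to 47.4%. Those sets hold more regions than 164, and no test was made, so the groups are a description. Of the 17 groups, 4 had 3 or more regions. The chromosome 15 group, chr15:61239614-61273653, held site 3, a region in 3 lists (chr15:61243198-61243708, folds 7.61 and 8.32 in WT and 4.61 in DKO replicate 2) and one in both WT lists (chr15:61273248-61273653, 6.39 and 7.32), among 7 regions of which 4 had naive peaks. The chromosome 2 group, chr2:128047530-128206888, held site 7 and 2 other regions. The chromosome 11 group, chr11:4146845-4239591, held 3 regions in 2 or 3 lists. On chromosome 16, site 6 and chr16:55582923-55583464, in 3 lists at folds of 8.14 and 9.85 in WT and 5.53 in DKO replicate 2, were the 2 regions between 55582923 and 55637400, with no naive region between them.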

How the data were processed

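CTCF CUT&RUN peaks of 8 libraries and the peaks of 1 IgG library of mouse splenic CD8+ T cells were analysed. Peaks were listed per library, not on pooled samples, as each sample has its own list. The submitters' processing notes name Bowtie2 2.2.5, MACS2 2.1.1, FastQC and the build mm9. The sources used here do not give the control or the thresholds of the calls. The authors deposited, per peak, a fold (its enrichment over the background estimated in peak calling), a −log10 p, a −log10 q and a score, which is 10 times the −log10 q cut to a whole number. A last deposited column places the summit, in bp from the start.

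Peaks on chromosomes 1 to 19 were merged where they overlapped by 1 bp or more, with Python 3.11.15, pandas 2.3.3 and scipy 1.17.1. Where a list had several peaks in a region, the one of lowest p was used. Each list was ranked by itself on the −log10 p. Intervals are exact (Clopper-Pearson, 95%). The merging step was tested on simulated lists whose sites lay too far apart to overlap. That test does not cover regions that lie close together. Groups and replicate numbers came from the sample titles.

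The members and the named sets were chosen with earlier results of these data known. Named regions are up to 10 in all 4 lists at 72 h, 5 each in both lists of 1 genotype alone, 3 in 1 list alone, 3 nearest to a naive peak, and the 3 densest windows of 500 kb. Of those in 1 list alone, the highest-ranked were chr2:92651302-92651700, chr13:38141596-38142303 and chr8:129379876-129380309, in WT replicate 2 at 72 h (folds 9.81, 11.9 and 6.61). Alternatives were stricter peaks, shortened lists, other overlap rules, all chromosomes and each library left out. The planned searches for motifs and nearby genes were not run, since no genome or annotation of mm9 was used here.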

Additional observations from a re-analysis of the deposited data

How the results depend on the processing

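The count of 1111 regions was 494 with −log10 q of at least 5 in the lists at 72 h alone, 2457 with every list shortened, 4368 when summits within 100 bp replaced overlap, 63 with the 72 h lists alone shortened, and from 187 to 1386 with each library left out. Under the same 4 settings the 164 regions in at least 2 lists became 90, 1078, 746 and 28 (42 to 202 with libraries left out), the 15 in all 4 lists became 7, 178, 76 and 7 (31 with all chromosomes, 16 to 18 without a naive library), the 97 of WT alone became 53, 157, 203 and 12 (99 to 1025 with libraries left out, where 1025 counts regions in WT replicate 2 and no DKO list, as only 1 WT list remains), and the 1 of DKO alone became 0, 157, 53 and 3 (0 with −log10 q of at least 5 in every list, 1 to 13 with libraries left out, where 13 counts regions in DKO replicate 2 and no WT list). Leaving out a naive list or shortening it adds regions by construction, and requiring closer summits splits regions; other causes were not tested. The DKO minus WT difference in share was 1.59 points with every list shortened, the only setting that reversed it, and -3.85 to -0.509 with libraries left out. With a replicate block it was -2.18 (exact permutation within the number, p = 0.5, the smallest possible). Ranked by fold, the median percentiles were 22.9 and 15.7 in WT and 18.7 and 21.7 in DKO. Another 72 h-only region lay within 10 kb of 6.66% and within 200 kb of 37.0%.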

Other observations

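The rule left out the X chromosome. Applied there, it gave 78 of 988 regions, of which 35 were in at least 2 lists at 72 h and 16 in all 4. On the autosomes it gave 1111 of 38586 regions, of which 164 were in at least 2 lists and 15 in all 4. The X chromosome thus held more regions called in all 4 lists at 72 h and in no naive list than all 19 autosomes together, and no test was made of this difference. The sexes of the animals in each library were not given in the labels used here, so the part of sex in it was not tested.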
